A study of Homo sapiens with 6 samples.

Results

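Human zinc finger genes outside chromosome 19 were followed in cells labelled Hep3B, a liver carcinoma line, which the series title describes as resistant to sorafenib, a drug that blocks several kinases. The genes were taken by name and place, without use of their levels: a symbol of ZNF, a number and at most 1 letter, on an autosome of build GRCh38 other than chromosome 19. This gave 230 of 17381 listed genes, on 19 chromosomes. Messenger RNA was sequenced in 6 libraries from 2 groups, 3 titled as knockout of STIM1, which senses calcium in the endoplasmic reticulum, and 3 controls with a wild-type genotype label. The genotype label of the knockout libraries names a different STIM gene in each, and only the titles and the series title make them 1 STIM1 group. No treatment was given to either group according to the labels, and whether the knockout was 1 clone, or a group's libraries came from separate cultures, is not given in the sources used here. All p-values therefore measure the spread between these libraries, which may be technical.

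The labels did not match the transcripts in several places. STIM1 had 1454, 1439 and 1422 normalized reads in the libraries labelled knockout, against 1047, 972 and 836 in control libraries. It was thus higher in every library labelled knockout, by 0.60 ± 0.06 on the log2 scale (limma, SE, adjusted p = 8.85e-07), although a transcript level need not show a disrupted protein. AFP and ALB, fetal and adult liver products, had at most 1 read in any library labelled knockout and 0 in control libraries, and APOA1 was near 0 in both groups. Of 14 hepatocyte and fetal liver markers 10 were listed, and their sum, carried by the keratins KRT8 and KRT18, was 38482 to 40190 in the libraries labelled knockout and 26914 to 27964 in control libraries. HNF4A, on the same list, was not near 0, with a mean of 817 in libraries labelled knockout and 219 in control libraries. Of the 10 listed, 3 rose, 1 fell and 6 were not called, where 25.7% of all listed genes rose and 28.8% fell. The sum of 7 fibroblast markers was 3124 to 3671 in libraries labelled knockout and 4288 to 4406 in control libraries. That of 5 endothelial markers was 19.5 to 22.9 in libraries labelled knockout and 127 to 165 in control libraries. That of 7 blood and immune markers was 101 to 123 in libraries labelled knockout and 996 to 1093 in control libraries. THY1, a fibroblast marker, averaged 0.953 ± 1.65 normalized reads in libraries labelled knockout and 2285 ± 42.7 in control libraries (SD, n = 3 each). COL1A1, also on the fibroblast list, went the other way and made up most of its sum in libraries labelled knockout, with 3111 ± 158 there and 1485 ± 19.3 in control libraries. The endothelial sum was carried in controls by PECAM1, with a mean of 3.01 in libraries labelled knockout and 123 in control libraries, and the blood and immune sum by CD68, with 58.4 in libraries labelled knockout and 915 in control libraries. The part of such differences in the results on zinc finger genes was not tested. In bulk RNA, fewer cells of a type and less RNA per cell cannot be told apart. The libraries held 12042705 to 15098349 reads when labelled knockout and 13857706 to 16398821 reads in controls, and the median coefficient of variation of the 162 members with a control level of at least 100 was 5.40% in libraries labelled knockout and 5.74% in control libraries.

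Zinc finger proteins of this family hold loops folded around a zinc ion, each of which can read a few bases of DNA. Many also carry a KRAB domain, which binds TRIM28 (KAP1) and through it the methyltransferase SETDB1 and heterochromatin proteins, so that the bound site is silenced. Their best known targets are transposable elements, and their genes arose by duplication and lie in clusters, the largest of which are on chromosome 19. A second domain, SCAN, lets some members pair with each other and is not itself a repressor. Some members with the same symbol do other work, in splicing, at the spindle or on ribosomes.

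Promoter sequences show how unlike the annotated starts of these genes are. Of the 230 members, 190 had a promoter in the RefSeq table for GRCh38.p14. For each gene only the start farthest upstream was kept, which need not be the one used in these cells. The 4 shown were chosen after the levels were seen, as a pair of genes that rose in a shared cluster and a pair that was almost lost, and each is the 250 bases before the start with every CpG in capitals. ZNF605 is at chr12:132956307-132956556 on the minus strand and ZNF10 at chr12:133130377-133130626 on the plus strand. ZNF365 is at chr10:62374119-62374368 and ZNF718 at chr4:127871-128120, both on the plus strand.
ZNF605: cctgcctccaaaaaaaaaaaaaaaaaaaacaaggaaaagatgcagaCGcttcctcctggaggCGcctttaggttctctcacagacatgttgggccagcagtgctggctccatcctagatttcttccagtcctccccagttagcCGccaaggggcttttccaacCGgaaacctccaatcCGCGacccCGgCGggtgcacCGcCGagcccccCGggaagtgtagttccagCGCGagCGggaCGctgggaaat
ZNF10: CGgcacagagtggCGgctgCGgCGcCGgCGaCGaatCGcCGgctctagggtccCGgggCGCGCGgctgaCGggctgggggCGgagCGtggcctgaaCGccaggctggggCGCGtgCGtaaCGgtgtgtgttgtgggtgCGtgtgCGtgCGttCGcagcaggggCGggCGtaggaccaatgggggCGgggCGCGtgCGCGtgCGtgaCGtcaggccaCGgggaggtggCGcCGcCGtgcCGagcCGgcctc
ZNF365: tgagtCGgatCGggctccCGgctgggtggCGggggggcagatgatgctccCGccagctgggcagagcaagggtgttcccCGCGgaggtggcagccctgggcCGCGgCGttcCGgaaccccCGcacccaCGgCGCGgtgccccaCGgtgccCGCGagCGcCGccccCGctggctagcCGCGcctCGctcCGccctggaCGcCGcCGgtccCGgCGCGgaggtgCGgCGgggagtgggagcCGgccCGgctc
ZNF718: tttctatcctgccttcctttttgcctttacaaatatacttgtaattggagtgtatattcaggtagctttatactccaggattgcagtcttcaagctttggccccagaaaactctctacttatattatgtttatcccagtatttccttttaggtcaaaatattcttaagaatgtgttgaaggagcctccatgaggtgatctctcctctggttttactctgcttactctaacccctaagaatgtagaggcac
ZNF605 had 15 CpG and ZNF10 had 40, and both genes rose. ZNF365 had 35 and ZNF718 had 0, and both fell. The window of ZNF10 lies in the 352 bases between its start and that of ZNF891, which is transcribed the other way.

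Members rose more often than they fell, whereas the reverse held for all genes. With the adjusted p of the authors' deposited table and a threshold of 0.05, 82 of 230 members (35.65%) rose in libraries labelled knockout, where 25.7% of all listed genes rose. The same table had 54 members (23.48%) that fell, where 28.8% of all genes fell, and 94 not called. The median log2 ratio of the group means was 0.14 over the 220 members with one, against -0.04 over all genes and -0.05 over 14280 genes of other names on the same autosomes. Of 215 members with a mean of at least 1 normalized read, limma called 92 up, where 32.3% of tested genes were up, and 62 down, where 36.1% were down. A total of 99 members had no overlap between groups and were higher in all libraries labelled knockout, against 29.9% of all genes, and 64 were lower, against 33.2% of all genes. Changes of at least 1 on the log2 scale were less frequent: 27 members rose so far, where 6.21% of all genes did, and 13 fell so far, where 10.9% did.

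The number of rises depends on how libraries are scaled. The distance between members and all genes can hardly depend on it, since a new scale shifts all genes of a library alike. When limma was scaled to the chromosome 1 genes that are no zinc finger genes, which themselves had a median log2 ratio of -0.14 with the deposited size factors, the median of all genes moved by over 0.1, to 0.09 against -0.04. The members' median was then 0.27. It stood 0.17 above that of all genes under either scaling, which the common shift nearly fixes in advance, so this tests nothing. With the chromosome 1 scaling 109 members were up and 44 down, so that 71.2% of called members were up, where 57.3% of all called genes were. With the deposited size factors the shares were 59.7% of called members and 47.2% of all called genes.

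Summed over all members, the level was 105053, 105719 and 106096 normalized reads in libraries labelled knockout, against 92307, 93283 and 93480 in control libraries. The groups did not overlap, and their ratio was 1.14. With 3 libraries in each group a two-sided exact permutation test cannot go below p = 0.1, which is the value found here (0.129 after Benjamini-Hochberg adjustment over the 9 sums tested, which are those of all members, of the KRAB members and of 7 clusters).

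**Figure D1:**
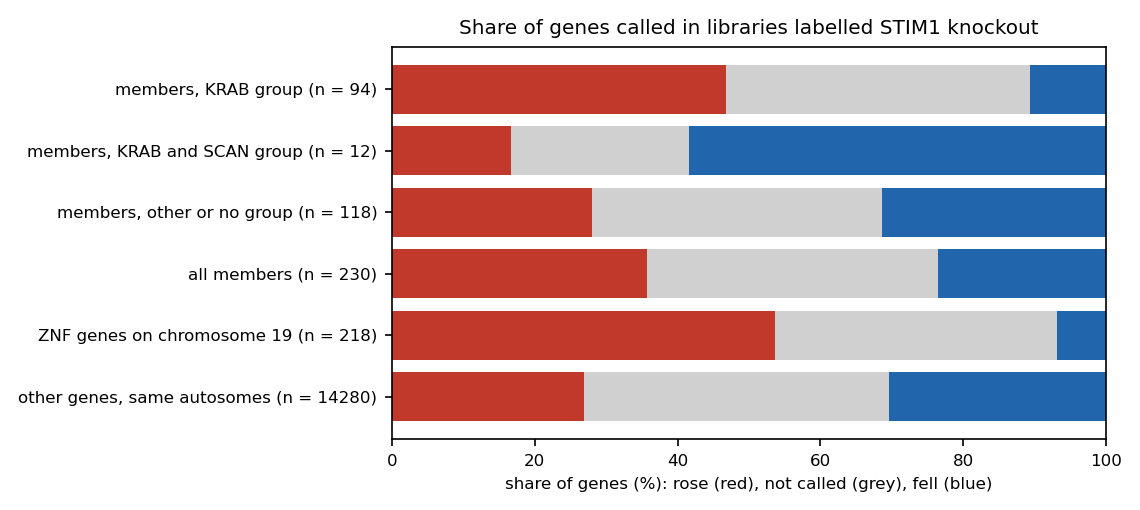
Share of genes (%) that rose, were not called or fell in libraries labelled STIM1 knockout against controls, called where the adjusted p of the authors' deposited table is under 0.05. Bars are members by annotated domain group, all 230 members, 218 ZNF genes on chromosome 19 and 14280 genes of other names on the same autosomes. KRAB members rose in 44 of 94 cases, where 25.7% of all listed genes rose. KRAB and SCAN members fell in 7 of 12, where 28.8% of all listed genes fell.

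Of the 82 rises, 44 were of members that the deposited annotation places in the KRAB group of KEGG. Among all 94 such members, 44 (46.8%) rose and 10 (10.6%) fell, with a median log2 ratio of 0.40. Of all listed genes 25.7% rose and 28.8% fell. Their summed level was 31956, 31894 and 32366 normalized reads in libraries labelled knockout, against 21169, 21482 and 21588 in control libraries. The groups did not overlap, and the ratio was 1.498 (exact permutation p = 0.1, the smallest possible with 3 against 3 libraries). The 118 members with another group or none can still hold a KRAB domain. Among them 33 (27.97%) rose and 37 (31.36%) fell, with a median log2 ratio of 0.01. These shares are near those of all genes. The 218 ZNF genes on chromosome 19 had 117 rises (53.67%) and 15 falls (6.88%), with a median of 0.76. The difference between these sets of genes was not tested, and the split by domain was made after the values had been seen.

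Members with both a KRAB and a SCAN domain fell more often than they rose. Of 12 such members 7 (58.3%) fell and 2 (16.7%) rose, with a median log2 ratio of -0.44. Of all genes 28.8% fell and 25.7% rose, and the difference from these few members was not tested. ZNF500, on chromosome 16, had 146, 176 and 205 normalized reads in libraries labelled knockout, against 314, 330 and 297 in control libraries. ZNF483 had 152, 167 and 156 in libraries labelled knockout, against 192, 222 and 277 in control libraries. Neither gene's groups overlapped, and these 2 of the 7 falls were not picked by a rule set beforehand. The 2 that rose were ZNF75A and ZNF445. ZNF445, which helps to keep imprinted DNA methylated, had 1329, 1376 and 1478 normalized reads in libraries labelled knockout, against 1145, 1124 and 1202 in control libraries. Of 6 members with a SCAN domain alone, 3 (50%) rose and none fell, and 6 genes are too few to judge against the shares of all genes. The other 3 were not called in the authors' deposited table, where 1 was lower at an unadjusted p under 0.05, and limma called 1 of the 6 down. ZNF396, chosen after its values were seen, rose to 32.4, 21.5 and 24.97 normalized reads in libraries labelled knockout, against 3.52, 10.6 and 2.07 in control libraries.

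The largest rises among called members with a mean of at least 20 normalized reads were those of ZNF658, ZNF239, ZNF879, ZNF469, ZNF37A, ZNF605, ZNF831 and ZNF10. ZNF658, known for a part in the response of genes to zinc, had 114, 99.6 and 111 normalized reads in libraries labelled knockout, against 29.1, 16.4 and 14.5 in control libraries. Its log2 difference was 2.44 ± 0.25 (limma, SE, adjusted p = 4.42e-07). ZNF239 had 577, 636 and 661 in libraries labelled knockout, against 138, 140 and 142 in control libraries. The groups of both genes lay far apart, and for ZNF239 the difference was 2.15 ± 0.08 (adjusted p = 6.25e-12 with limma). ZNF37A had 1729, 1825 and 1893 normalized reads in libraries labelled knockout, against 512, 501 and 475 in control libraries. It had the smallest adjusted p of all members in the authors' deposited table, 1.4e-179. ZNF658 and ZNF37A have close copies elsewhere in the genome, so their reads may be divided or shared and their values are uncertain.

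ZNF831 had 1048, 1107 and 1062 normalized reads in libraries labelled knockout, against 404, 348 and 300 in control libraries. ZNF879 and ZNF469 were lower in level. ZNF879 had 71.5, 55.7 and 46.4 in libraries labelled knockout, against 14.1, 13.5 and 17.6 in control libraries, and ZNF469, mutated in brittle cornea syndrome, had 73.4, 49.8 and 55.9 in libraries labelled knockout, against 6.17, 26.0 and 16.6 in control libraries. All libraries labelled knockout were above all control libraries for these 3 genes as well. Limma's differences were 1.62 ± 0.09 for ZNF831, 1.86 ± 0.25 for ZNF879 and 1.99 ± 0.39 for ZNF469, on log2(normalized reads + 1), a scale that understates the change of low genes.

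**Figure D2:**
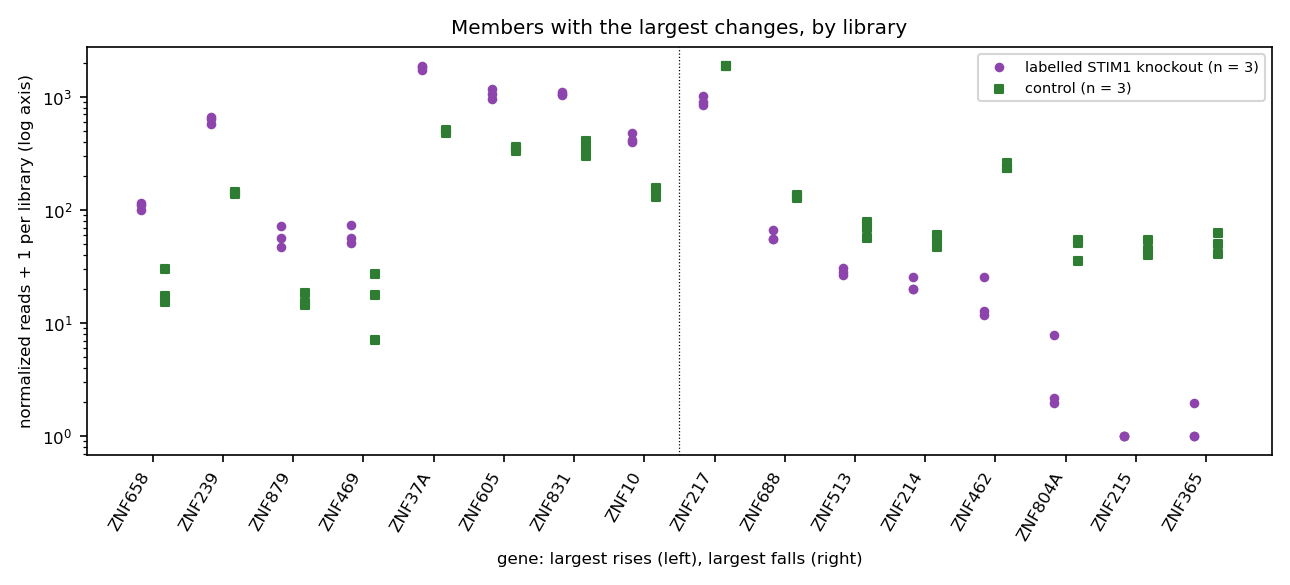
Normalized reads + 1 in each library (log axis) for the 8 largest rises (left) and 8 largest falls (right) among called members with a mean of at least 20. Circles are the 3 libraries labelled STIM1 knockout and squares the 3 control libraries, and no gene's groups overlap. ZNF215 is at 0 in every library labelled knockout.

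The largest falls reached near absence. ZNF215, a KRAB and SCAN member, had 0 reads in each library labelled knockout, against 43.2, 53.0 and 39.4 normalized reads in control libraries. With its group counted as 3 reads in total, the floor used here, it was at least 43.5-fold lower (limma adjusted p = 9.94e-09). ZNF214, its neighbour on chromosome 11, had 19.1, 24.4 and 19.02 in libraries labelled knockout, against 45.8, 59.8 and 56.0 in control libraries. Both genes of the pair fell, while the 12 other measured genes within 500 kb of ZNF215 had a median log2 ratio of 0.25.

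ZNF365, linked to the stability of replicating DNA, had 1 read over the 3 libraries labelled knockout, against 39.6, 49.2 and 62.2 normalized reads in control libraries. Its control level was 155 times that of the libraries labelled knockout, with a 95% counting interval of 25.6 to 5761. ZNF804A, a gene known from schizophrenia genetics, had 0.953, 6.84 and 1.19 in libraries labelled knockout, against 53.7, 50.1 and 34.2 in control libraries. ZNF462, a chromatin gene mutated in a developmental disorder, was the highest of these in controls. It had 24.8, 10.7 and 11.9 normalized reads in libraries labelled knockout, against 236, 232 and 260 in control libraries, a log2 difference of -3.95 ± 0.25 (limma, SE, adjusted p = 2.58e-09). No group overlapped another for these genes.

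In all, 9 members (3.91%) fell to under 10% of the control level, where 4.13% of all genes did, so the share is near that of all genes. The cut at 10% was chosen after the values were seen. The other 5 were low in controls. ZNF32 had 0 reads in libraries labelled knockout, against 10.6, 12.5 and 10.4 normalized reads in control libraries, and was at least 10.7-fold lower. ZNF827, known from telomere chromatin, had 1 read in libraries labelled knockout, against 12.3, 24.1 and 10.4 normalized reads in control libraries. ZNF608, ZNF718 and ZNF883 had 2 or 3 reads in all over the libraries labelled knockout, with mean control levels of 20.5, 13.1 and 18.0 normalized reads. No member rose more than 10-fold.

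ZNF513, ZNF688 and ZNF217 fell less far. ZNF513 had 29.5, 25.4 and 27.3 normalized reads in libraries labelled knockout, against 55.5, 68.5 and 76.7 in control libraries. Its entry overlaps that of SNX17, so its reads are uncertain. ZNF217, an oncogene of breast cancer, had 846, 1017 and 902 in libraries labelled knockout, against 1870, 1874 and 1882 in control libraries, a log2 difference of -1.03 ± 0.06 (limma, SE, adjusted p = 4.12e-10). ZNF217 was also among the 6 members of highest control level.

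The other 5 most abundant members changed by smaller amounts. ZNF664 had 4898, 5031 and 4876 normalized reads in libraries labelled knockout, against 4076, 4127 and 3994 in control libraries, a log2 difference of 0.28 ± 0.03 (limma, SE, adjusted p = 4.58e-07). Its entry overlaps a read-through entry. ZNF638, which takes part in silencing retroviral DNA that has not integrated, had 2743, 2693 and 2778 in libraries labelled knockout, against 2143, 2032 and 2278 in control libraries. ZNF740 fell to 1570, 1503 and 1659 in libraries labelled knockout, against 1935, 1987 and 1999 in control libraries, and overlaps CSAD and ITGB7. Groups did not overlap in these 3 genes. ZNF207, a spindle protein, rose by 0.10 ± 0.03 on the log2 scale (limma, SE, adjusted p = 0.0130), and ZNF106 was not called in the authors' deposited table (adjusted p = 0.118). Per kilobase of gene model, the mean level of ZNF664 was 1144 normalized reads in libraries labelled knockout and 943 in controls, and that of ZNF638 was 402 in libraries labelled knockout and 316 in controls.

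A list of 10 members, known for roles other than or beside the reading of a DNA sequence, had 3 rises and 3 falls, with a median log2 ratio of 0.02. These shares, 30% each, are near the 25.7% and 28.8% of all genes that rose and fell. ZNF638, ZNF326 and ZNF207 rose, with log2 ratios of 0.35, 0.19 and 0.10. ZNF598, ZNF622 and ZNF451 fell, with log2 ratios of -0.55, -0.20 and -0.22. The falls detailed here were not picked by a rule set beforehand. ZNF598, the ubiquitin ligase of collided ribosomes, had 1025, 1100 and 1049 normalized reads in libraries labelled knockout, against 1555, 1532 and 1561 in control libraries. Its groups were apart, at -0.55 ± 0.04 (limma, SE). ZNF622, a factor of the large ribosomal subunit, averaged 1176 ± 94.9 in libraries labelled knockout and 1349 ± 11.3 in controls (SD, n = 3 each). The members nearest to no change among those with a control level of at least 500 were ZNF592, ZNF652 and ZNF236. ZNF592 had 1356, 1433 and 1327 normalized reads in libraries labelled knockout, against 1293, 1374 and 1434 in control libraries, and its groups overlapped. ZNF652 averaged 1058 ± 20.5 in libraries labelled knockout and 1048 ± 10.6 in controls, and ZNF236 averaged 502 ± 60.7 in libraries labelled knockout and 510 ± 42.7 in controls (SD, n = 3 each).

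**Figure D3:**
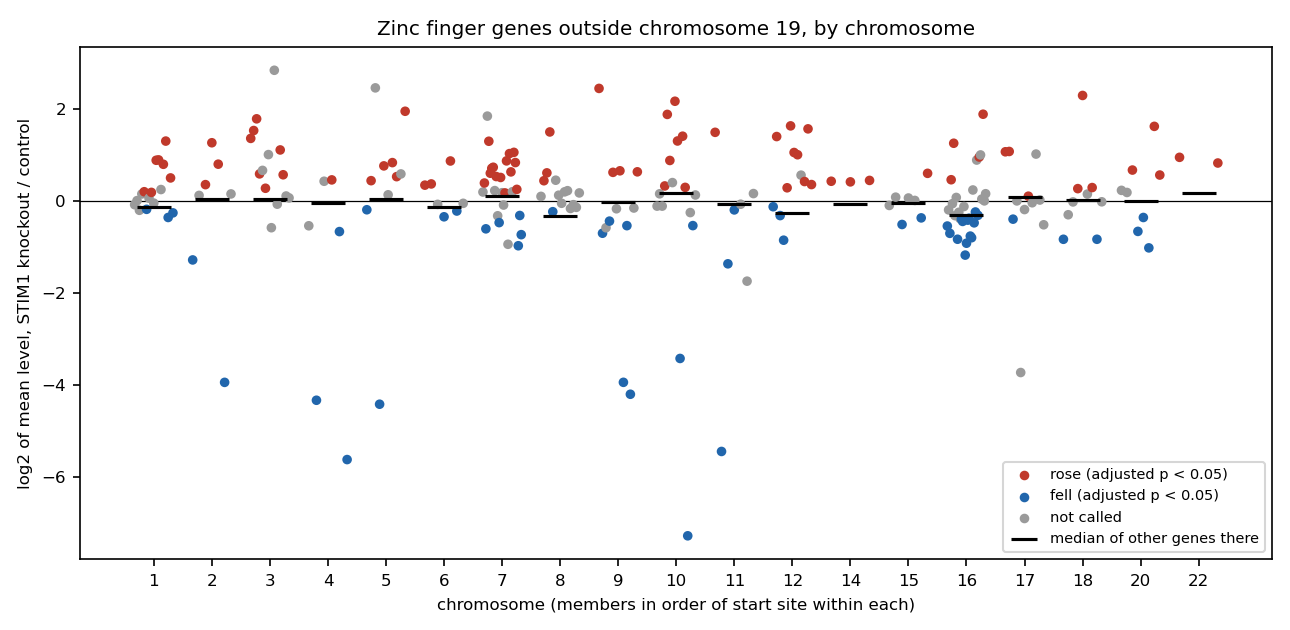
Log2 ratio of mean level, libraries labelled STIM1 knockout over control, for each member in order of start site within its chromosome. Points are genes, coloured by call, groups at 0 are held at 3 reads, and the 10 members at or under that level in both groups are not drawn. Bars give the median of genes of other names on the chromosome, which is lowest on chromosomes 8, 16 and 12.

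Chromosomes differed in the balance of rises and falls. On chromosome 3, 7 of 16 members rose and none fell (none by limma, and none at an unadjusted p under 0.05 in the authors' deposited table). The median log2 ratio was 0.62, while genes of other names there had a median of 0.03, with 30.77% up and 27.65% down. ZNF860 on this chromosome, chosen after its values were seen, had 582, 589 and 573 normalized reads in libraries labelled knockout, against 233, 230 and 220 in control libraries. ZNF619, ZNF620 and ZNF621, also on this chromosome, rose too. ZNF620 is not near ZNF860, as their promoter windows begin at 40505789 and 31981500. On chromosome 7, 14 of 30 members rose and 5 fell, where 32.27% of the other genes rose and 24% fell. On chromosome 12, 8 of 12 members rose and 3 fell, with a median of 0.48, where 21.71% of the other genes rose and 42.73% fell. On chromosome 16 the balance was reversed, with 4 of 31 members (12.9%) up and 14 (45.16%) down and a median of -0.25. The other genes there were close to this, with 14.37% up, 45.05% down and a median of -0.31. Without chromosome 16, 78 of 199 members (39.2%) rose and 40 (20.1%) fell, where 25.7% of all listed genes rose and 28.8% fell. The shares of all listed genes still include chromosome 16, and this split was not planned beforehand. The KRAB members had 42 rises (51.2%) and 5 falls (6.1%) among 82 outside chromosome 16. They had 2 rises (16.7%) and 5 falls (41.7%) among 12 on it, and the difference between these counts was not tested.

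Neighbouring members formed 7 clusters, each a run of at least 5 measured members with starts at most 500 kb apart. The cluster that rose most lies near the end of chromosome 12, at 132918306 to 133214832, and holds ZNF605, ZNF26, ZNF84, ZNF140, ZNF891, ZNF10 and ZNF268, all in the KRAB group. Of these 7, 6 rose, where 25.7% of all listed genes did. Where 29.9% of all listed genes had higher values in every library labelled knockout than in any control, all 7 members did. Their summed level was 4058, 3882 and 4246 normalized reads in libraries labelled knockout, against 2104, 2045 and 1979 in control libraries. The sum was 1.99 times as high (exact permutation p = 0.1, the smallest possible, 0.129 adjusted over 9 sums).

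Members of the chromosome 12 cluster differed in size of change. ZNF605 had 1059, 965 and 1170 normalized reads in libraries labelled knockout, against 344, 358 and 335 in control libraries. ZNF84 had 1033, 1011 and 1077 in libraries labelled knockout, against 521, 515 and 528 in control libraries. ZNF10, whose KRAB domain is the one often fused to other proteins to silence genes, had 416, 401 and 476 in libraries labelled knockout, against 130, 153 and 156 in control libraries. These 3 genes were clearly apart between groups. ZNF891, which starts head to head with ZNF10, had 711, 733 and 750 in libraries labelled knockout, against 600, 535 and 510 in control libraries, a log2 difference of 0.42 where ZNF10 had 1.56. ZNF891 and ZNF140 overlap, so their reads may be shared. No measured gene of another name starts inside the cluster. Of 11 within 500 kb of it, 6 rose and 1 fell, with a median of 0.21. The rise was not common to all of them: CHFR, a mitotic checkpoint gene, had a mean of 85.3 normalized reads in libraries labelled knockout and 189 in controls.

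**Figure D4:**
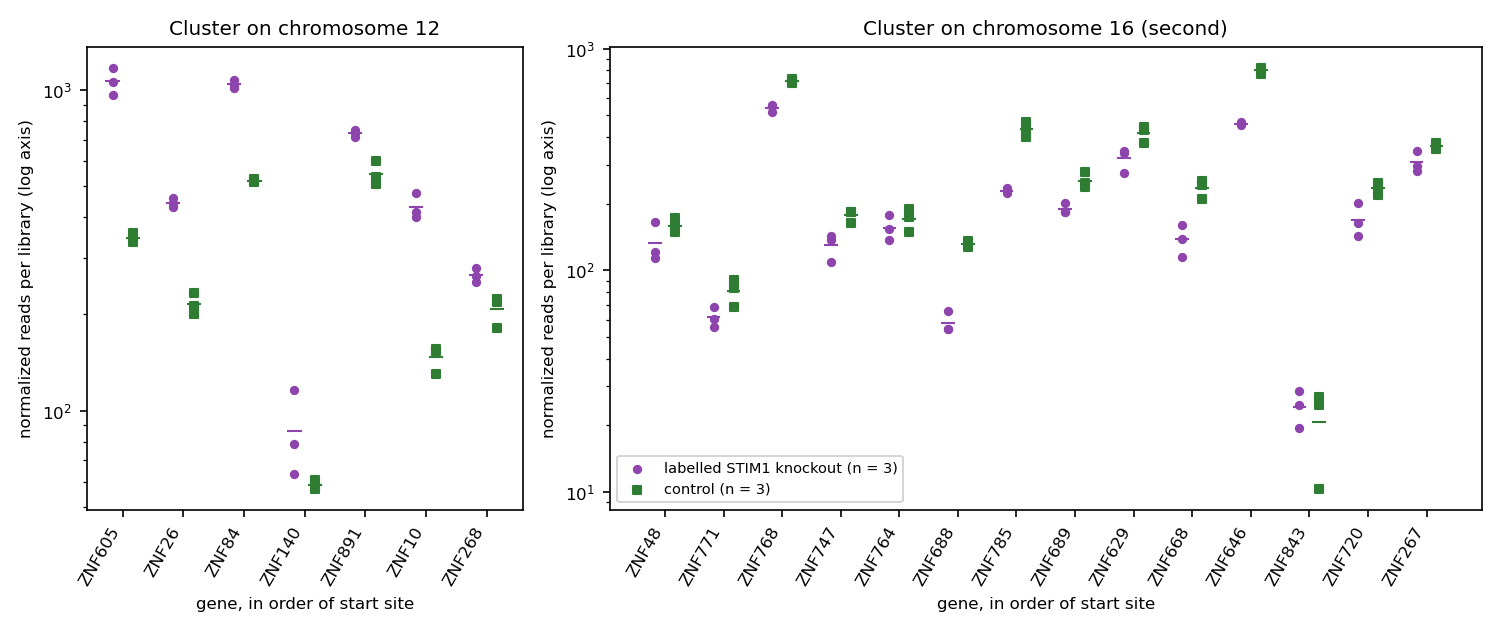
Normalized reads in each library (log axis) for the members of the chromosome 12 cluster and of the second chromosome 16 cluster, in order of start site. Circles are the 3 libraries labelled STIM1 knockout, squares the 3 control libraries and lines the means. All 7 members on chromosome 12 lie higher in the libraries labelled knockout, and 11 of 14 on chromosome 16 lie lower without overlap. Over all listed genes, 29.9% were higher and 33.2% lower without overlap.

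Both clusters on chromosome 7 also rose in sum. The first, at 64313961 to 65401136, had 6 measured members, of which 5 rose and none fell, and its summed level was 2191, 2271 and 2295 normalized reads in libraries labelled knockout, against 1374, 1464 and 1433 in control libraries (exact permutation p = 0.1). ZNF736 had 274, 300 and 295 in libraries labelled knockout, against 118, 122 and 115 in control libraries. ZNF107 had 555, 560 and 562 in libraries labelled knockout, against 339, 331 and 361 in control libraries. Both sets of values were apart, and ZNF273 was the member not called. Over all listed genes, 25.7% rose and 28.8% fell. No member of this cluster was lower at an unadjusted p under 0.05 in the authors' deposited table or in limma's calls.

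The second cluster, at 149069641 to 149867479, had 10 members, of which 6 rose and 2 fell, where 25.7% of all listed genes rose and 28.8% fell. Its summed level was 4927, 5249 and 4975 normalized reads in libraries labelled knockout, against 3620, 3595 and 3615 in control libraries (exact permutation p = 0.1). ZNF398 had 858, 946 and 861 in libraries labelled knockout, against 418, 423 and 472 in control libraries. ZNF282, known as a protein that binds a retroviral repeat, had 1577, 1696 and 1567 in libraries labelled knockout, against 1077, 1037 and 1025 in control libraries. All 6 rises lay among the first 8 genes, and the last 2, ZNF467 and ZNF862, which are not in the KRAB group, fell. ZNF467 had 134, 164 and 175 in libraries labelled knockout, against 300, 284 and 349 in control libraries. KRBA1, the only measured gene of another name that starts in this cluster, fell by 3.68 on the log2 scale. Of 8 measured within 500 kb outside it, 5 rose and 3 fell, with a median of 0.35, against 0.43 for the members.

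The cluster on chromosome 1, at 246945546 to 247331867, had 3 rises and 1 fall among 5 members and a sum that was nearly the same in both groups. Over all listed genes, 25.7% rose and 28.8% fell. ZNF124 had 166, 152 and 190 normalized reads in libraries labelled knockout, against 88.1, 66.5 and 52.9 in control libraries. ZNF496, a KRAB and SCAN member of higher level, had 705, 684 and 663 in libraries labelled knockout, against 841, 876 and 926 in control libraries. The 2 genes moved in opposite directions, and the cluster's sum was 1236 ± 21.2 in libraries labelled knockout and 1202 ± 40.2 in controls (SD, n = 3 each, exact permutation p = 0.4).

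None of the 6 members of the cluster on chromosome 8, at 144720909 to 144950880, was called in either direction by limma or in the authors' deposited table, even at an unadjusted p under 0.05, and all 6 had overlapping groups. Their sum was 522 ± 14.2 normalized reads in libraries labelled knockout and 539 ± 19.1 in controls (SD, n = 3 each, exact permutation p = 0.2). ZNF250 had 92.4, 98.7 and 106 in libraries labelled knockout, against 99.5, 115 and 114 in control libraries. ZNF16 had 67.7, 81.1 and 54.7 in libraries labelled knockout, against 67.8, 52.1 and 61.2 in control libraries. Of 19 measured genes of other names within 500 kb, 1 rose and 7 fell.

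Chromosome 16 held a mixed and a falling cluster. In the first, at 3112586 to 3443504, 2 of 7 members rose and 1 fell, and the summed level was 2039 ± 28.1 normalized reads in libraries labelled knockout and 1860 ± 49.6 in controls (SD, n = 3 each, exact permutation p = 0.1). ZNF75A had 354, 388 and 380 normalized reads in libraries labelled knockout, against 187, 146 and 141 in control libraries. ZNF213 had 149, 137 and 146 in libraries labelled knockout, against 249, 220 and 236 in control libraries. The sum was carried by ZNF75A: the median log2 ratio of the 7 members was -0.07, and 4 of them were lower without overlap. Over all listed genes, 25.7% rose, 28.8% fell and 33.2% were lower without overlap. ZNF75A and ZNF213 are both KRAB and SCAN members and moved in opposite directions. Of 26 measured genes of other names within 500 kb, 3 rose and 19 fell, with a median log2 ratio of -0.72.

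The second cluster on chromosome 16, at 30378312 to 31917357, had 14 members. Of these, 10 fell in the authors' deposited table, where 28.8% of all listed genes fell and 25.7% rose. None of the members of this cluster rose there, at an unadjusted p under 0.05 either, or by limma. Its summed level was 2899, 2929 and 2920 normalized reads in libraries labelled knockout, against 4211, 4074 and 4298 in control libraries, a ratio of 0.695 (exact permutation p = 0.1, 0.129 adjusted over 9 sums). ZNF785 had 235, 228 and 224 in libraries labelled knockout, against 436, 398 and 468 in control libraries. ZNF688 had 54.3, 65.4 and 54.7 in libraries labelled knockout, against 128, 132 and 136 in control libraries. ZNF646 had 466, 452 and 457 in libraries labelled knockout, against 817, 813 and 770 in control libraries, and its entry overlaps PRSS53 and ZNF668. All 3 genes had groups that did not overlap.

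The fall in this stretch of chromosome 16 was shared by genes of other names. Of 32 measured inside the cluster, 22 fell and 2 rose, with a median log2 ratio of -0.59, against -0.41 for the zinc finger members. Of 26 within 500 kb outside it, 19 fell, and none rose by either test, also without adjustment in the authors' deposited table. ORAI3, a calcium channel subunit that STIM proteins open, lies inside and had a mean of 130 normalized reads in libraries labelled knockout and 437 in controls. It was chosen after its values were seen. Across 178 measured members with at least 3 measured neighbours, the log2 ratio of a member and the median of its neighbours had a Pearson r of 0.10 and a Spearman rho of 0.35. Genes share libraries and neighbours and are not independent, so these values only describe the table.

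**Figure D5:**
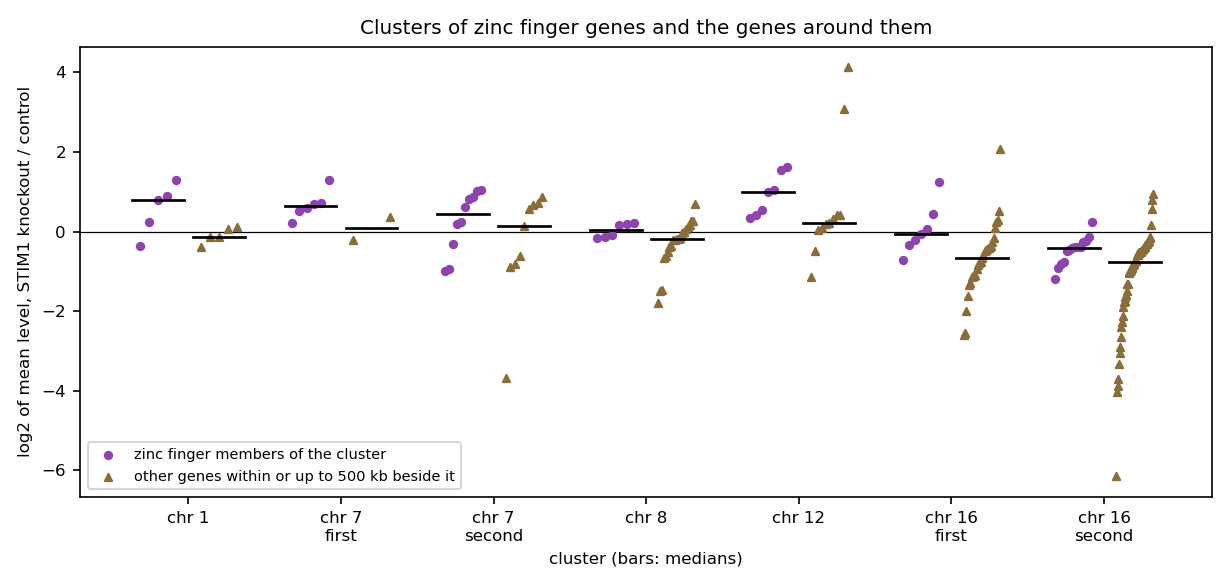
Log2 ratio of mean level, libraries labelled STIM1 knockout over control, for members of each cluster (circles) and for measured genes of other names inside it or within 500 kb (triangles), with bars at the medians. The members' medians are 1.00 in the chromosome 12 cluster and -0.41 in the second chromosome 16 cluster.

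Partners of KRAB zinc finger proteins were looked up by 30 symbols of genes for repression with TRIM28, heterochromatin and DNA methylation, of which FAM208A is an older name of TASOR. Of the 28 genes found, 11 (39.29%) rose, where 25.7% of all genes did, and 10 (35.71%) fell, where 28.8% did, with a median log2 ratio of -0.08. TRIM28, the KRAB corepressor, had 4176, 3918 and 4178 normalized reads in libraries labelled knockout, against 3510, 3820 and 3791 in control libraries. SETDB1, its histone methyltransferase, had 978, 1025 and 994 in libraries labelled knockout, against 1247, 1179 and 1214 in control libraries. DNMT1, which copies DNA methylation at replication, had 1500, 1429 and 1448 in libraries labelled knockout, against 3553, 3651 and 3776 in control libraries. TRIM28 was slightly higher, by 0.14 ± 0.04 on the log2 scale (limma, SE, adjusted p = 0.00388), and DNMT1 had the largest change among called genes of the list, -1.33 ± 0.04 (adjusted p = 1.71e-13 with limma). UHRF1, which brings DNMT1 to replicated DNA, averaged 1857 ± 55.4 in libraries labelled knockout and 2649 ± 12.7 in controls (SD, n = 3 each). CBX5, a heterochromatin protein, averaged 5481 ± 146 in libraries labelled knockout and 9188 ± 349 in controls. These 3 were named as those of smallest p. Among the rises, chosen after their values were seen, the histone methyltransferase SUV39H2 had 385, 432 and 439 normalized reads in libraries labelled knockout, against 216, 237 and 247 in control libraries, and MPHOSPH8, a subunit of the HUSH silencing complex, averaged 998 ± 31.0 in libraries labelled knockout and 728 ± 32.8 in controls (SD, n = 3 each).

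Promoter letters were searched for 10 patterns on both strands of the window of 250 bases before to 50 after each start. CCGGAAG, the core letters of ETS sites, stood in 34.7% of 190 members' windows, in 10.6% of all 27305 windows of the table, in 14.2% of those of protein-coding genes and in 43.8% of those of ZNF genes on chromosome 19. It was in 41.2% of members that rose and 37.0% of members that fell. TATAAA was in 3.68% of members, 12.02% of all windows and 9.75% of protein-coding windows. GGGCGG was in 62.6% of members, 44.5% of all and 58.3% of protein-coding windows. In the same order, CCAAT was in 44.7%, 35.7% and 36.4%, and TGCGCA in 15.3%, 8.45% and 10.8%. TGACG was in 36.8%, 24.97% and 29.4%, and ACTACAA in 6.32%, 2.94% and 3.13%. GCGCATGCG was in 5.79%, 2.10% and 2.76%, and TGACGTCA or TGACGCA in 10%, 4.41% and 5.57%. A palindromic pattern of 10 letters was in 0.526%, 0.469% and 0.669%. TGACG lies within both letters TGACGTCA and TGACGCA. The median CpG count was 23.5 in members that rose and 27.5 in those that fell, against 13 in all windows and 22 in those of protein-coding genes. A match is a run of letters and not a shown binding site.

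The members nearest the threshold were ZNF488 and ZNF713 inside it, with adjusted p of 0.0481 and 0.0361 in the authors' deposited table. Just outside, in the same authors' deposited table, were ZNF852 and ZNF595, with 0.0516 and 0.0518. ZNF852 also has an entry on an alternate locus, as have ZNF311, ZNF623 and ZNF707, and 38 members overlap another listed entry, so their reads are uncertain. The remaining 188 members rose in 72 cases (38.3%) and fell in 41 (21.8%), where 25.7% of all listed genes rose and 28.8% fell.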

How the data were processed

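The authors deposited, per the file headers, 1 signal per group for each of 17381 genes, which is the group's mean of read counts divided by size factors, and no value per library. The table also holds the ratio (fold) of the 2 means and its log2 value, deposited by the authors. Its p-value and adjusted p-value columns, deposited by the authors, have the DESeq form per the file headers. The aligner and counter are not given in the sources used here. The submitters' processing notes name only mouse builds, while the table's chromosome accessions are human GRCh38. Strand use in counting is likewise not given.

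From the 15 printed digits of each mean, the whole reads of its 3 libraries were worked out for all genes in both groups. For 1 gene in each group, neither of them a member, several sets of reads fitted. The means these reads give were off the deposited ones by at most 2.91e-10, and on simulated data 1493 of 1493 and 1492 of 1492 means were read rightly. Which recovered library is which sample is unknown, and values stand in the order of falling size factor within a group. Calls are the authors' adjusted p under 0.05. limma 3.58.1 in R 4.3.3 (trend, log2(normalized reads + 1), mean of at least 1, Benjamini-Hochberg over all genes tested, tested on simulated data) gave SE and alternatives. A floor of 3 reads over the group and 95% intervals cover counting error only.

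Named genes are the 8 largest rises and falls among called members with a mean of at least 20, the 6 highest in controls, the 2 of smallest p in each cluster, 3 of least change, and TRIM28, SETDB1 and the 3 of smallest p of the corepressor list. Others stand in a cluster, are said to be chosen after their values were seen, or were named under no rule set beforehand. The latter include ZNF500, ZNF483, ZNF598 and ZNF622. Members and lists were chosen with earlier results of these data known.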

Additional observations from a re-analysis of the deposited data

How the results depend on the processing

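Among members, 82 rises and 54 falls became 27 and 13 with a log2 change of at least 1, and leaving out each library in turn in limma gave 84 to 89 rises and 54 to 60 falls. Scaling to chromosome 1 genes, which was added after the data were seen along with voom weights, library totals and the removal of overlapping entries, gave 109 and 44. The median of the members in place of the sum moved the chromosome 1 cluster to 0.79 against 0.04 on the log2 scale and the second chromosome 16 cluster to -0.41 against -0.52. It reversed the sign of the chromosome 8 cluster to 0.0404 against -0.05. Both of these values are small, no member was called there, and the cause was not tested. It also reversed the first chromosome 16 cluster, whose sum was carried by ZNF75A, to -0.0652 against 0.13. Leaving out each library in turn kept these 2 sums at -0.07 to -0.02 and 0.11 to 0.15. Of 602 values of 43 named genes under the alternatives, 592 kept their side of the threshold. Of these, 6 changed sign without being called, in ZNF592, ZNF652 and ZNF236, and 586 kept their direction as well. ZNF207 lost its call without 1 control library, where its log2 change was 0.08. ZNF106 gained a call in 7 settings, and ZNF592 and ZNF652 in 1 each, the scaling to chromosome 1. No paired analysis was possible because the recovered libraries carry no sample number. The planned edgeR, DESeq2 and TMM alternatives were not run. Voom weights on the recovered reads were the test run on counts. Low reads limit the size of the near losses.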
